A study of Mus musculus with 5 samples.

Results

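The p53 target genes described here act in cell cycle arrest, cell death and stress signalling: Fas, Ei24, Mdm2, Bax, Bbc3, Pmaip1, Ccng1, Sesn1, Sesn2 and Zmat3. They were represented by every probe set whose only gene symbol in the platform annotation was one of these 10 names. That gave 17 of the 45037 probe sets on the array, for 9 of the 10 genes. Bax was not analysed here. Mdm2 and Ccng1 had 3 probe sets each, Sesn1 had 4, Sesn2 had 2, and each of the other genes had 1.

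The samples were tumour cells from the prostates of 5 C57BL/6 mice, separated with EpCAM beads from dissociated tumours. The 3 nDKO mice carried floxed Smad4 and a further floxed allele that is not named here, under Probasin, a promoter active in prostate epithelium. The 2 nTKO mice carried the same alleles and floxed Pygo2 as well, so by the labels the Smad4 deletion is common to both groups and the comparison concerns loss of Pygo2, a chromatin reader and co-activator of Wnt signalling. Ages were 15.86, 10.71 and 10.71 weeks for nDKO mice 1, 2 and 3, and 31.43 and 16 weeks for nTKO mice 1 and 2. Values are log2 signals normalised between arrays, 1 array per mouse.

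p53 is a transcription factor that is stabilised after DNA damage or oncogenic stress and switches on genes that stop the cell cycle, repair DNA or kill the cell. Mdm2 is both a target of p53 and the ubiquitin ligase that degrades it, which closes a feedback loop. In prostate epithelium that has lost tumour suppressors, p53 is known as a brake on growth through senescence, and its target genes are widely used as a readout of its activity. Several of them also respond to other regulators, such as the p53 relative p63 in basal and squamous epithelium or Atf4 under amino acid shortage.

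The 1 probe set of Pygo2 gave 8.65, 8.62 and 8.72 for the nDKO arrays and 7.30 and 6.35 for the nTKO arrays, lower in both as labelled; whether its probes lie within the floxed segment was not examined. Smad4, labelled as deleted in both groups, was bright on all 5 arrays by its brightest of 3 probe sets, at 9.63, 9.88 and 9.88 in nDKO mice and 9.76 and 10.37 in nTKO mice, so this signal does not show the deletion; where its probes lie was not examined either. Epithelial markers were bright on every array (array medians of the 7 genes Epcam, Krt8, Krt18, Krt19, Cdh1, Cldn4 and Cldn7 between 12.59 and 13.04, against medians of all probe sets between 4.94 and 4.98). Medians of the B cell, fibroblast and endothelial marker lists were between 3.20 and 4.22, below the medians of all probe sets, although the fibroblast gene Dcn measured 6.41 to 9.52. The list medians of other immune markers lay above the medians of all probe sets. They were 7.27 to 8.27 for macrophages (9 of 9 genes measured), 6.3 to 7.8 for neutrophils and 5.21 to 5.37 for T cells. Of the 6 T cell genes measured, 2 lay below the medians of all probe sets on all 5 arrays. Of 10 squamous genes, 8 were higher in nDKO 1 and nTKO 1, the oldest mouse of each genotype, than in the other 3 mice. Among them Krt10 was at 13.03 and 13.04 there and at 6.71 to 6.93 in the other 3. Lor and Sprr1a did not follow, with Sprr1a at 11.17 in nTKO 1 and 11.47 in nTKO 2. In such bulk samples fewer cells of a type and less RNA per cell cannot be told apart.

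The DNA element that p53 binds is built from decamers, usually a pair of them side by side. Promoter windows of 300 bases (250 before and 50 after the transcription start, from RefSeq on build GRCm38.p6) were found for 7 of the 9 measured genes, 10 windows in all. The windows were searched for the p53 consensus decamer with no mismatch, which reads the same on both strands. It was present in 4 of these 10 windows, against 8.36% of all 32851 windows of the table. These 4 are shown because they belong to genes whose values are followed below, with the decamer in capitals:
Ei24 (chr9:36797310-36797369, minus strand, decamer starting 10 bases before the start site): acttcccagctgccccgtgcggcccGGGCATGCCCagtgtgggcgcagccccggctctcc
Mdm2 (chr10:117710910-117710969, minus strand, 186 bases before): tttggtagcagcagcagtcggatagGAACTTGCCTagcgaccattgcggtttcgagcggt
Ccng1 (chr11:40755437-40755496, minus strand, 185 bases before): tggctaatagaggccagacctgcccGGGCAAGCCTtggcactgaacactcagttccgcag
Sesn1 (chr10:41887241-41887300, plus strand, 173 bases before): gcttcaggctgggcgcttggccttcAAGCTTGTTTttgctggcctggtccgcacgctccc

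A looser search for 2 adjoining decamers, with up to 3 mismatches and the central CNNG of both in place with A or T in its middle, found 1 further window, that of Bbc3. It is shown because it holds a full element of adjoining decamers, which 0.572% of all windows do; the capitals mark the pair, 97 bases before the start site:
Bbc3 (chr7:16309461-16309530, plus strand): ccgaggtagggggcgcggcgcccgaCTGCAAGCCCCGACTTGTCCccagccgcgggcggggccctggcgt
Neither search found a match in the windows of Fas and Sesn2. These are matches of letters in a short window and do not show binding.

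The differences in mean of these genes between nTKO and nDKO cells were small, and none passed the test across the array. No probe set of the array did, including that of the floxed Pygo2 (log2 fold change -1.84, limma adjusted p = 0.799). The test therefore cannot tell unchanged genes from changed ones. Fas, the death receptor, had higher values in nTKO 1 and nTKO 2 than in any nDKO mouse, while Ei24, Sesn2 and the brightest probe set of Mdm2 had lower values in both. The 17 differences lay between -0.37 and 0.34 on the log2 scale. Of the 17 probe sets, 6 had a higher and 11 a lower nTKO mean, with a median log2 fold change of -0.08 against 0.017 over all probe sets.

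With limma, 0 of the 17 probe sets had an adjusted p under 0.05 (background over all probe sets 0%, smallest adjusted p 0.799). Without adjustment, 3 of the 17 had a limma p under 0.05, where the share over all probe sets was 3.8%. These were Fas, Ei24 and the dimmer probe set of Sesn2. The groups did not overlap for 5 of the 17 (12.2% of all probe sets), with 1 higher (7.02%) and 4 lower (5.17%). The 4 include both probe sets of Sesn2, which are not separate genes. By brightest probe set, 1 of the 9 genes was higher without overlap (8.13% of all genes) and 3 were lower (4.71%). Without nDKO 1 and nTKO 1 the count at a limma p under 0.05 was 5 of 17, and the share over all probe sets was then 16.4%. Without nDKO 3 it was 0 of 17 (3.13% of all probe sets), and without nDKO 1, nDKO 2 or nTKO 1 it was 1 each time (4.68%, 2.6% and 9.38% of all probe sets). Without nTKO 2 it was 3 of 17, and 17.6% of all probe sets had such a p.

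**Figure D1:**
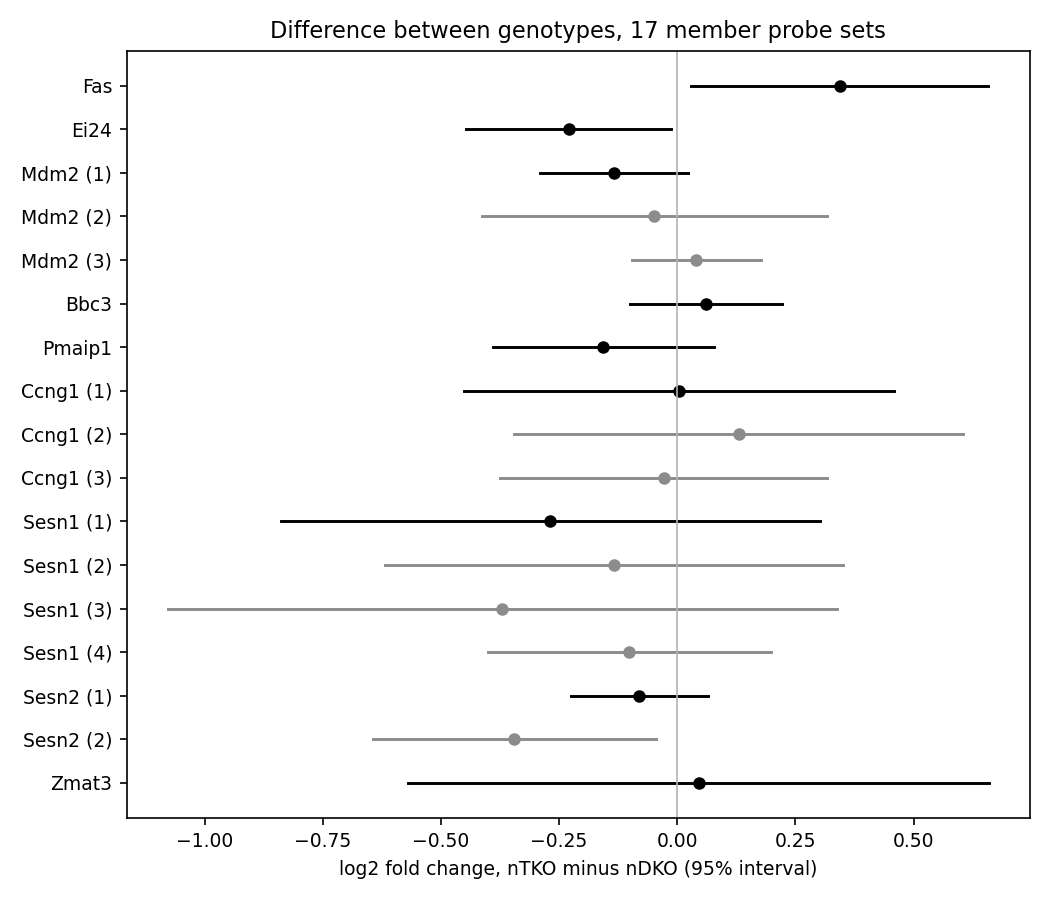
Log2 fold change of nTKO minus nDKO (horizontal axis) with its 95% interval from limma for the 17 probe sets, numbered within a gene by falling signal, with the brightest probe set of each gene in black and the others in grey. The intervals of Fas, Ei24 and the dimmer Sesn2 probe set leave out 0 before any adjustment, and the 4 probe sets of Sesn1 all lie below 0 with wide intervals.

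Among the genes of cell death, Fas encodes the receptor that binds Fas ligand and recruits Fadd and caspase-8 to start apoptosis from the cell surface. Its signal was 6.03, 6.36 and 6.14 in nDKO mice 1, 2 and 3 and 6.50 and 6.54 in nTKO mice 1 and 2. Both nTKO mice thus lay above the highest nDKO mouse, by at least 0.14, and close to each other. The difference was 0.34 (SE 0.12, 95% interval 0.029 to 0.66), or 1.27-fold, with a limma p of 0.038 before adjustment and an adjusted p of 0.799.

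The neutrophil list (7 of 9 genes measured), whose cells also carry Fas, had a log2 summed signal of 10.78 to 11.51 in nDKO mice, 13.94 in nTKO 1 and 9.73 in nTKO 2. For macrophages it was 10.62 to 11.83 in nDKO mice, 11.33 in nTKO 1 and 10.81 in nTKO 2. T cell markers (6 of 8 measured) had a log2 summed signal of 7.59 to 7.70 in nDKO and 7.68 to 7.72 in nTKO mice. The part of these cells in the values of Fas was not tested. Fasl, the ligand, was dim, at 2.98 to 3.38 on the 5 arrays.

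Ei24, also called PIG8, is an endoplasmic reticulum protein induced by p53 and needed for autophagy. It measured 10.38, 10.50 and 10.44 in nDKO mice and 10.13 and 10.29 in nTKO mice, with both nTKO mice below the lowest nDKO mouse. The difference was -0.23 (SE 0.079, 95% interval -0.45 to -0.014), 0.853 times the nDKO level, with a limma p of 0.042 before adjustment (adjusted 0.799). nTKO 1 was the lower of the 2, and without it the difference was -0.15.

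Bbc3 (Puma) and Pmaip1 (Noxa) are BH3-only proteins that free Bax and Bak from their BCL2-family inhibitors. Bbc3 had the same value, 6.97, on 4 of the 5 arrays and 7.09 in nTKO 1, so its difference of 0.06 (95% interval -0.10 to 0.22) came from that mouse alone. Values shared by at least 3 arrays were found for 2 of the 17 probe sets and for 30.8% of all probe sets. Pmaip1 measured 9.36, 9.16 and 9.28 in nDKO mice and 9.16 and 9.06 in nTKO mice. nTKO 1 and nDKO 2 had the same value, so the groups met, and the difference was -0.16 (SE 0.086, limma adjusted p = 0.799).

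**Figure D2:**
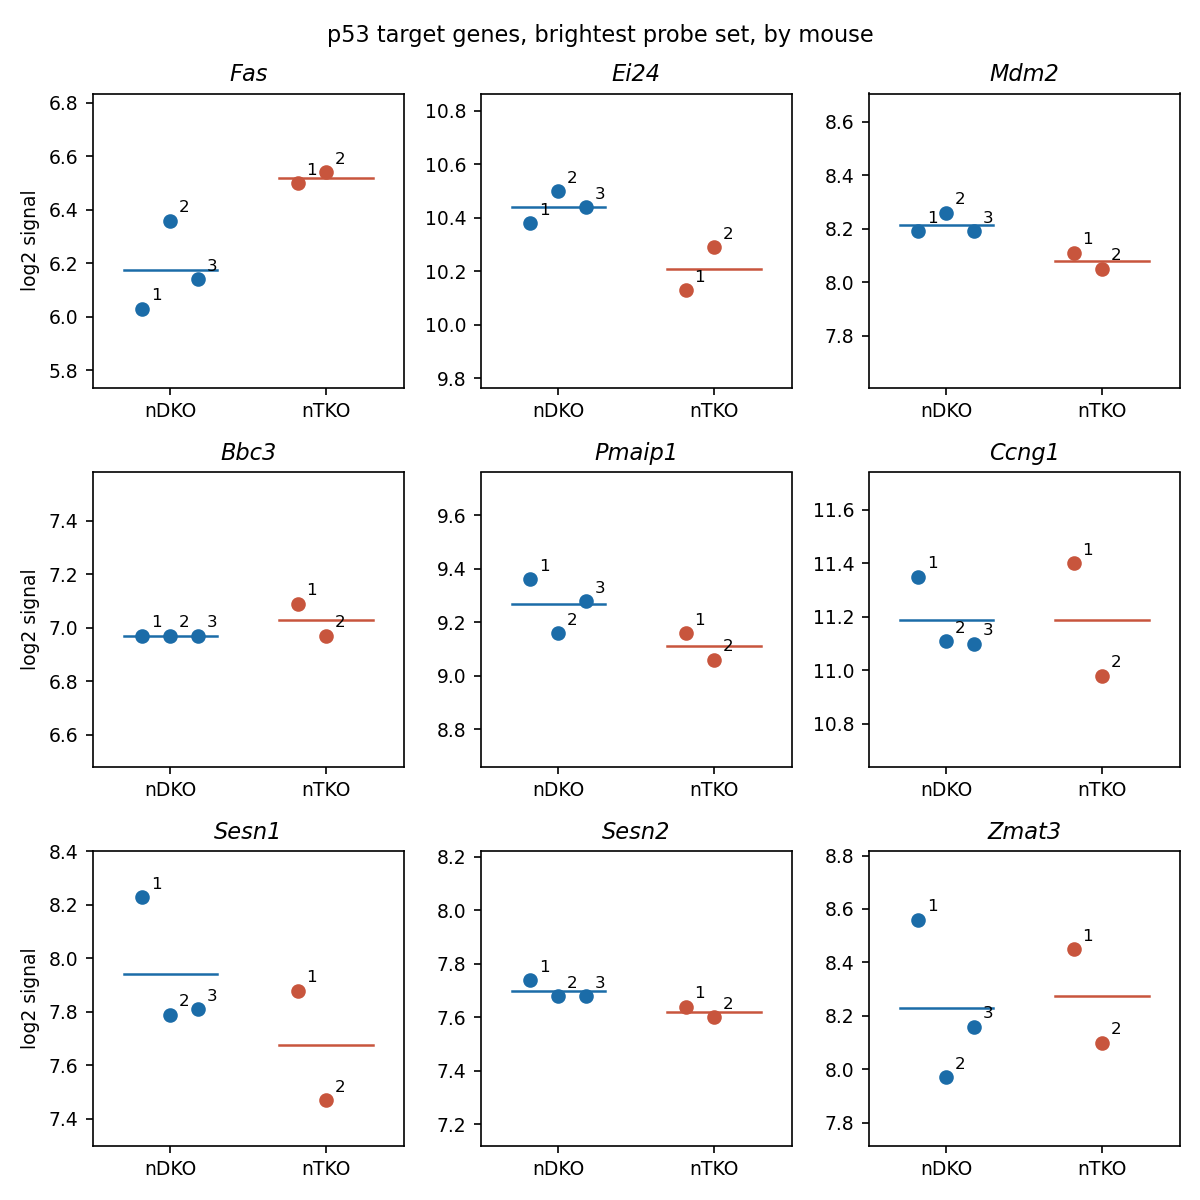
Log2 signal (vertical axes, all of equal span) of the brightest probe set of 9 p53 target genes in nDKO (blue) and nTKO (red) mice, with the mouse number beside each point and a line at the group mean. Fas stands above, and Ei24, Mdm2 and Sesn2 stand below, the nDKO points in both nTKO mice, while Ccng1, Zmat3 and Sesn1 have their highest points in mouse 1 of each genotype.

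In the feedback arm, the brightest probe set of Mdm2 measured 8.19, 8.26 and 8.19 in nDKO mice and 8.11 and 8.05 in nTKO mice. Both nTKO values were below all nDKO values, by a gap of 0.08, and the difference was -0.13 (SE 0.057, 95% interval -0.29 to 0.023, limma adjusted p = 0.799). The second probe set, of like signal, did not separate the groups, with 8.04, 7.92 and 8.14 against 8.15 and 7.82 (difference -0.048). The third was dim, at 3.12 to 3.24, below the array medians. The separation of Mdm2 therefore rested on 1 of 3 probe sets.

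Ccng1 encodes cyclin G1, which recruits a phosphatase to Mdm2. Its brightest probe set measured 11.35, 11.11 and 11.10 in nDKO mice and 11.40 and 10.98 in nTKO mice, a difference of 0.0033 (95% interval -0.45 to 0.46). The 2 nTKO mice were the highest and the lowest of the 5. Its other 2 probe sets, designed from the same transcript record, gave 0.13 and -0.028. All 3 ranked nDKO 1 and nTKO 1 above the other 3 mice, so the probe sets gave one picture across mice although the genotype means hardly differed.

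The sestrins Sesn1 and Sesn2 sense stress and leucine and restrain mTORC1 through the GATOR complexes. Sesn1 was lower on average in nTKO cells by all 4 probe sets (log2 fold changes of -0.37 to -0.10), and the groups overlapped in all 4. The brightest measured 8.23, 7.79 and 7.81 in nDKO mice and 7.88 and 7.47 in nTKO mice. nDKO 1 was highest and nTKO 2 lowest, and the difference was -0.27 (SE 0.21, 95% interval -0.84 to 0.30, limma adjusted p = 0.799). It was -0.063 without nTKO 2 and -0.125 without nDKO 1. Probe sets of the type of the brightest and the third can bind transcripts of other genes.

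Sesn2 had lower values in both nTKO mice than in any nDKO mouse by both of its probe sets, which come from the same transcript record. The brighter one measured 7.74, 7.68 and 7.68 in nDKO mice and 7.64 and 7.60 in nTKO mice, a difference of -0.08 (SE 0.053, limma adjusted p = 0.799). The other measured 6.84, 6.89 and 6.91 in nDKO mice and 6.69 and 6.38 in nTKO mice. Its difference was -0.34 (SE 0.11, 95% interval -0.64 to -0.046), with the smallest p of the set (limma adjusted p = 0.799, 0.033 before adjustment), and it was -0.50 without nTKO 1 and -0.19 without nTKO 2. The 2 probe sets thus shared the direction but not the size.

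Zmat3 encodes an RNA-binding zinc finger protein that acts on splicing and RNA stability downstream of p53. It measured 8.56, 7.97 and 8.16 in nDKO mice and 8.45 and 8.10 in nTKO mice. Mouse 1 of each genotype was highest, the groups overlapped across their whole range, and the difference was 0.045 (95% interval -0.57 to 0.66, limma adjusted p = 0.974).

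**Figure D3:**
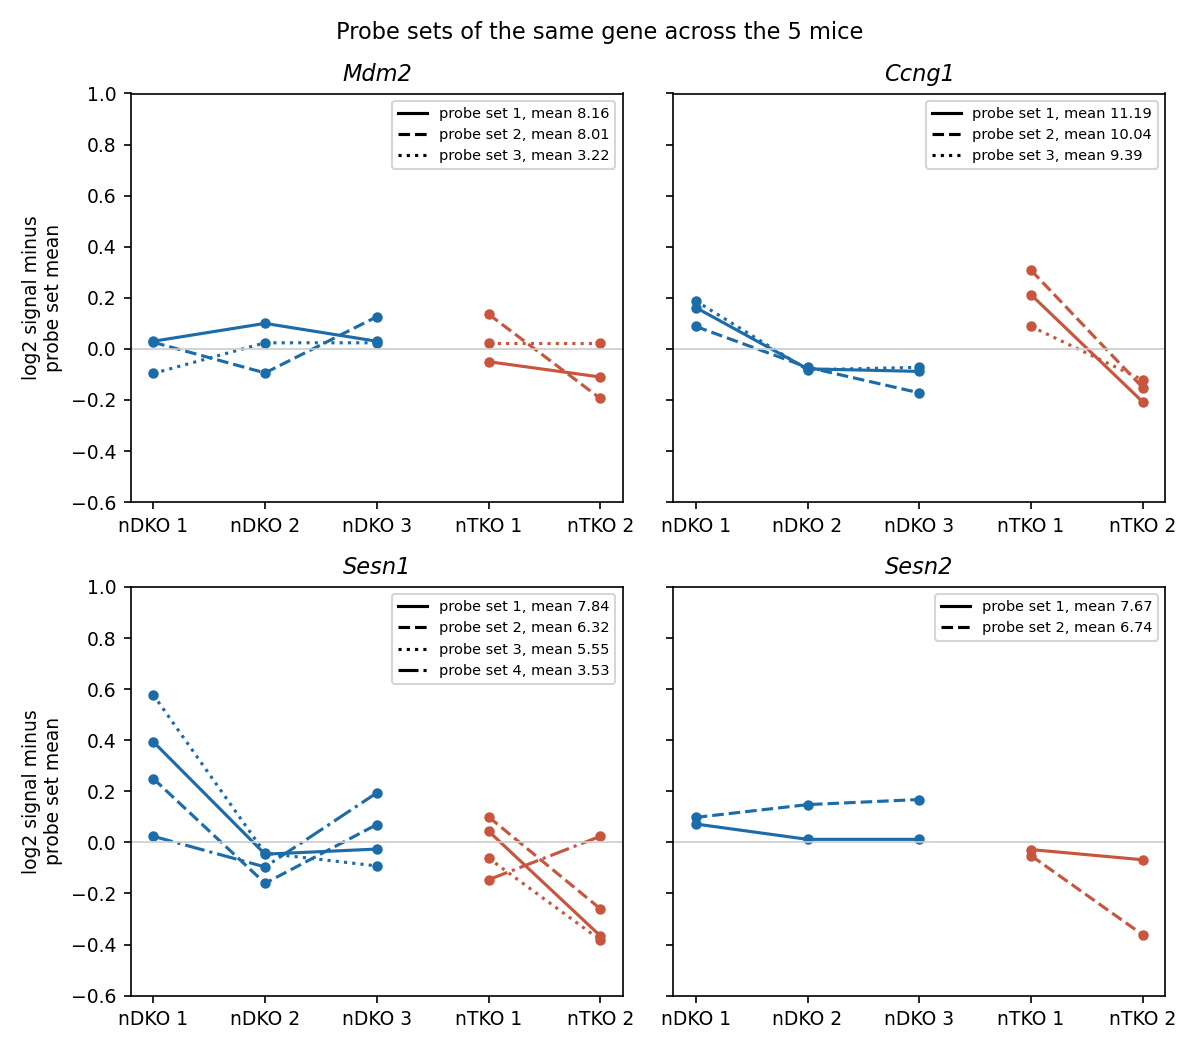
Log2 signal minus the mean of the probe set over the 5 arrays (vertical axes) for each probe set of Mdm2, Ccng1, Sesn1 and Sesn2 in each mouse, with lines joining the values of 1 probe set within a genotype only to guide the eye. The 3 probe sets of Ccng1 and the 3 brighter ones of Sesn1 run together across mice, those of Mdm2 do not, and those of Sesn2 differ mostly in nTKO 2.

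By brightest probe set, the range among the 3 nDKO mice was wider than the genotype difference for Ccng1, Zmat3, Sesn1 and Pmaip1. Those of Ccng1, Zmat3 and Sesn1 were highest in nDKO 1 and nTKO 1, a pattern found in 3 of the 9 genes and in 14.6% of all genes. It was also found in 9 of 29 other p53 target genes. These were Cdkn1a, Ddit4, Psrc1, Ak1, Perp, Plk3, Plk2, Ercc5 and Eda2r. Values are given for Cdkn1a, Perp, Eda2r and Plk2, chosen after they were seen. Cdkn1a measured 10.92 and 10.54 in nDKO 1 and nTKO 1 and 9.15 to 10.16 in the other mice. Perp, a desmosomal p53 and p63 target, measured 12.37 and 12.11 in nDKO 1 and nTKO 1 and 10.64 to 11.44 in the other mice. Eda2r, a receptor of the TNF family, measured 7.92 and 8.10 against 6.67 to 7.25. Plk2, a stress-induced kinase, measured 9.95 and 9.66 against 9.03 to 9.22.

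These 2 mice also had the highest squamous and basal signals and the highest Trp63, which encodes p63 (9.49 and 8.64, against 6.86 to 7.25). The log2 summed signal of the squamous list (10 of 10 measured) was 15.26, 13.56 and 13.61 in nDKO mice and 14.79 and 13.13 in nTKO mice. For the basal list (5 of 5) it was 14.91, 13.92 and 13.91 against 14.31 and 13.26. Their part in the values of Ccng1, Zmat3 and Sesn1 was not tested. None of the 9 genes spanned 1 log2 unit over the 5 arrays by its brightest probe set (largest span 0.76, Sesn1), the limit set for naming genes of like pattern, so none are named.

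Age differed between the genotypes, and the values of Sesn1, Zmat3 and Ccng1 shifted most when it was taken into account. Only nDKO 1 and nTKO 2 were of like age, and in that single pair (nTKO 2 minus nDKO 1) Sesn1 differed by -0.76, Zmat3 by -0.46, Ccng1 by -0.37 and Pmaip1 by -0.30, while Fas differed by 0.51 and Ei24 by -0.09. With log2 age as a covariate the values were close to these, at -0.73, -0.41, -0.38, -0.29, 0.47 and -0.087. Both settings lean on the same mice, nDKO 1 with the highest summed squamous signal and nTKO 2 with the lowest, so they are not separate checks. In the fit with age, 5 of the 17 probe sets had a limma p under 0.05 (9.08% of all probe sets), all lower. They were 1 of Ccng1, 1 of Sesn2 and 3 of Sesn1, and those 3 are not separate genes. The Ccng1 probe set and 1 of the 3 were the brightest of their genes, and that of Sesn2 was the dimmer one. The smallest adjusted p among the 5 was 0.402. Fas and Ei24 kept their direction but neither was among these 5.

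**Figure D4:**
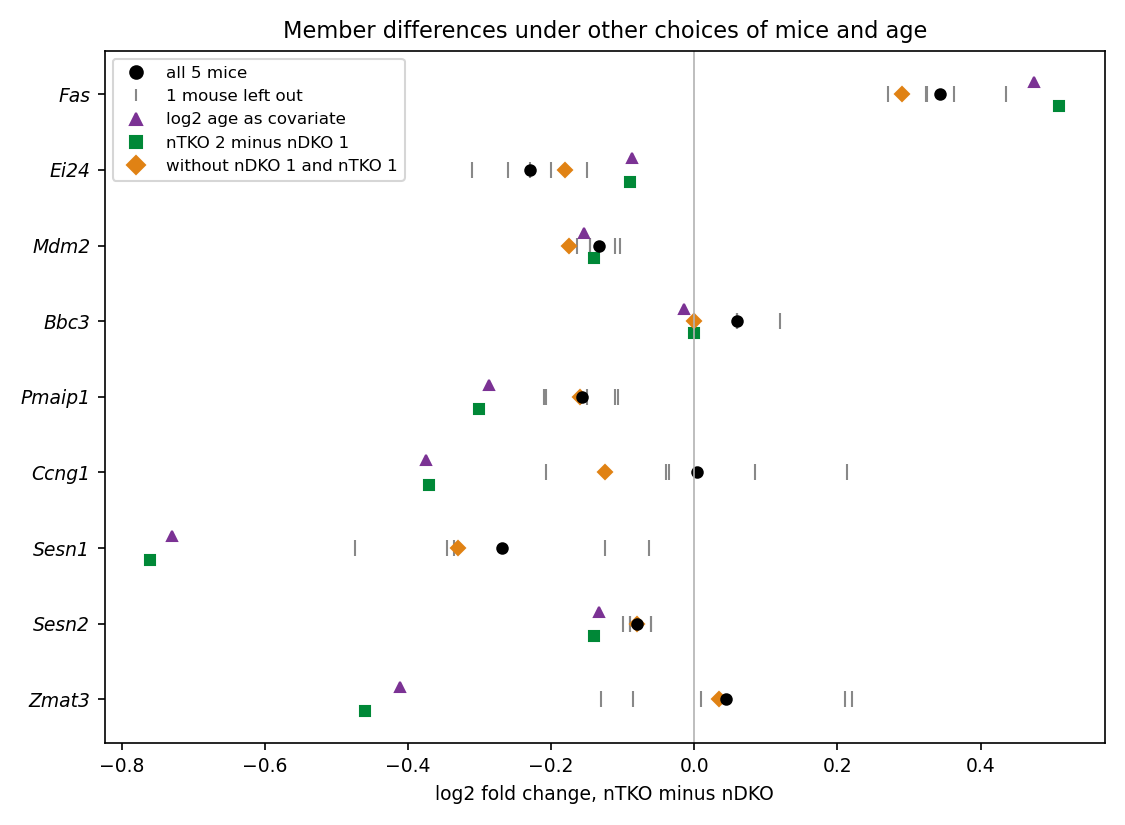
Log2 fold change of nTKO minus nDKO (horizontal axis) for the brightest probe set of each gene with all mice (black), with 1 mouse left out (grey bars), with log2 age as a covariate (purple), in the pair of like age (green) and without mouse 1 of each genotype (orange). Fas stays above 0 and Ei24, Mdm2, Pmaip1, Sesn1 and Sesn2 stay below 0 in the settings drawn, while Ccng1, Zmat3 and Bbc3 lie on both sides.

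The wider p53 network was split between directions. Of 29 further p53 target genes measured (of 30 listed), 15 had higher and 14 lower nTKO means, with a median log2 fold change of 0.0083 against 0.028 over all genes. None had a limma adjusted p under 0.05, and 1 had an unadjusted p under 0.05, where the share over all genes was 3.74%. That gene was Pidd1, which encodes a death domain protein that scaffolds caspase-2 activation. It measured 6.14, 6.12 and 6.15 in nDKO mice and 6.29 and 6.48 in nTKO mice, a difference of 0.25 (SE 0.074, limma adjusted p = 0.799). The nDKO mice were close together, and both nTKO mice lay above them.

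The 4 genes next by p were Btg2, Tigar, Ppm1d and Abhd4. The antiproliferative Btg2 was at 0.39 (SE 0.17) and the glycolytic regulator Tigar at 0.23 (SE 0.11), each with both nTKO mice above the nDKO mice. The phosphatase Ppm1d, which switches p53 signalling off, was at -0.20 (SE 0.095) and Abhd4, a lipid hydrolase, at -0.23 (SE 0.12), each with both nTKO mice below. The groups did not overlap for 9 of the 29, with 5 higher (8.13% of all genes) and 4 lower (4.71%). With log2 age as a covariate, 11 of the 29 had a limma p under 0.05, 10 of them lower (5.19% of all genes), and the median was -0.18. Among the 11, Cdkn1a, Perp, Plk3, Eda2r, Ak1, Ercc5 and Psrc1 are named above as highest in nDKO 1 and nTKO 1. The others were Phlda3, Dram1, Ppm1d and Pidd1. As for the members, this fit leans on nDKO 1 and nTKO 2, which differ in squamous signal. Without nDKO 1 and nTKO 1 the count was 8, 7 of them lower (8.42% of all genes), and without nTKO 2 it was 8, 7 of them higher (11% of all genes).

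Regulators and relatives of p53 had 6 genes higher and 8 lower of 14, with a median of -0.025 and 0 with a limma p under 0.05. The damage kinase Atr was at 0.23 and the p53 kinase Hipk2 at -0.18. Of 21 BCL2-family and caspase genes measured, 10 were higher and 11 lower (median -0.01), again with 0 at a limma p under 0.05. The survival factor Bcl2 measured 8.40, 8.14 and 8.27 in nDKO mice and 8.08 and 8.0 in nTKO mice, a difference of -0.23 (SE 0.098, limma adjusted p = 0.799), and Hrk, a BH3-only protein, differed by 0.20 (SE 0.084). The effector Bak1, whose role overlaps that of Bax, was at -0.22 (SE 0.15).

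The GATOR complexes, through which the sestrins act, showed no gene past the test. Of 8 GATOR genes, 7 had higher nTKO means and Mios had 7.47 on all 5 arrays (median 0.077), with 0 at a limma p under 0.05 and overlapping groups for all 8; Depdc5, a GATOR1 subunit, was at 0.44 (SE 0.29). In the Atf4 stress response, which also induces Sesn2, 8 of 10 genes were higher and 2 lower (median 0.18). Asns, asparagine synthetase, measured 8.84, 8.88 and 9.18 in nDKO mice and 9.25 and 9.29 in nTKO mice, a difference of 0.30 (SE 0.13, limma adjusted p = 0.799). Atf3 was at 0.60 (SE 0.29), with 7.51, 8.30 and 8.26 in nDKO mice and 8.55 and 8.70 in nTKO mice. Its lowest value was that of nDKO 1. The groups did not overlap for 2 of the 10 genes, Asns and Atf3, both higher (8.13% of all genes). None of the 10 had a limma p under 0.05.

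Cell cycle genes that p53 represses through the DREAM complex lay close to 0. Of 11 measured, 4 were higher and 7 lower, all between -0.17 and 0.11 with a median of -0.0083, and 0 had a limma p under 0.05. Plk1, the mitotic kinase with the smallest p, measured 6.88, 7.10 and 6.49 in nDKO mice and 6.43 and 6.88 in nTKO mice (difference -0.17, SE 0.25).

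**Figure D5:**
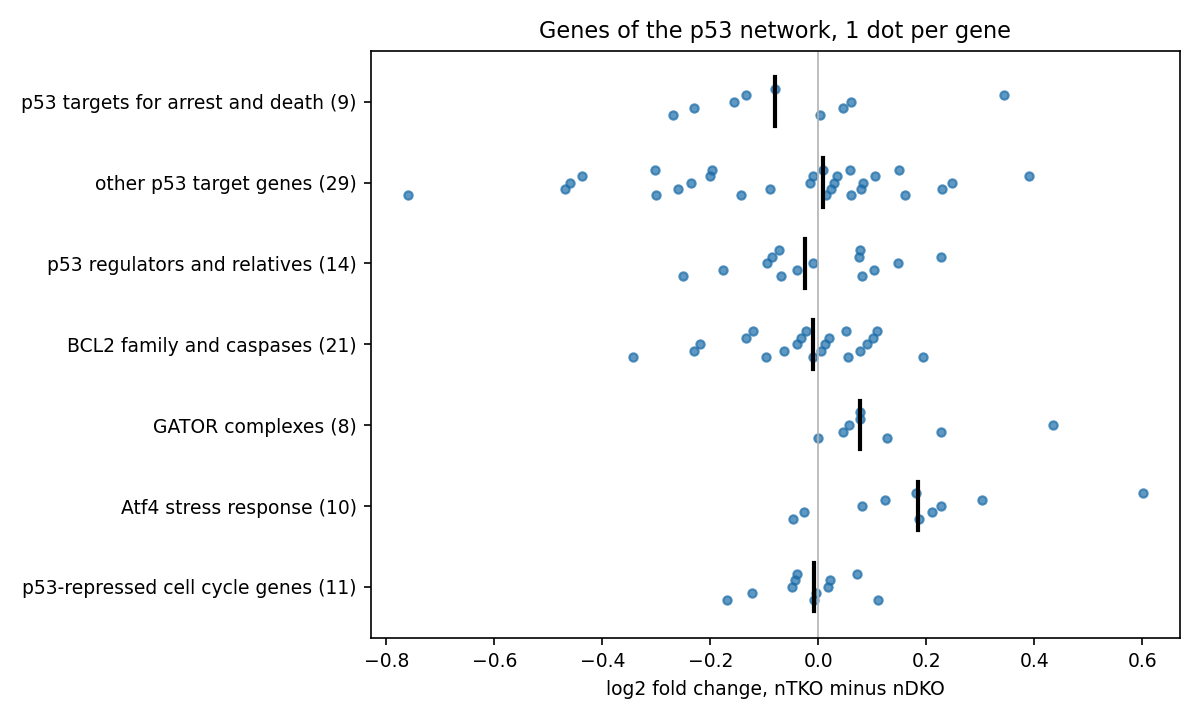
Log2 fold change of nTKO minus nDKO (horizontal axis) for each gene of 7 lists of the p53 network by its brightest probe set, with the number measured in brackets and a bar at the median. List medians lie between -0.08 and 0.18, and dots fall on both sides of 0 in every list except that of the GATOR complexes.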

How the data were processed

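Total RNA of 5 mice was hybridised to 1-colour Affymetrix mouse arrays. The authors deposited log2 signals, with a single value for each probe set on each array. The submitters' processing notes name RMA and the Transcriptome Analysis Console without versions. Because RMA forces all arrays to a common distribution, any shift common to most genes is removed. The number of arrays limits the precision.

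The 2 genotypes were set against each other in R 4.3.3 with limma 3.58.1 (lmFit, eBayes with an intensity trend) over all 45037 probe sets without a filter, two-sided, with Benjamini-Hochberg adjustment over the table and a threshold of 0.05. The fit had 3 residual and 1.18 prior degrees of freedom. On simulated data with independent noise it returned the mean size of planted changes. That simulation held no age or squamous differences, so it does not check the p-values given here. In lists each gene stood by its brightest probe set (by mean signal) among those with a single symbol (18193 genes). Per list, up to 5 genes with the smallest p were open to naming. Other p53 targets high in nDKO 1 and nTKO 1 were named besides, after their values were seen. The members and lists were chosen with earlier results of these data known. Some items are not reported here.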

Additional observations from a re-analysis of the deposited data

How the results depend on the processing

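Over the 14 other fits, 0 of the 17 probe sets had a limma adjusted p under 0.05 in any (smallest 0.142, without nDKO 1 and nTKO 1). The count at an unadjusted p was 5 with log2 age as a covariate and 5 without nDKO 1 and nTKO 1, and 0 to 3 with 1 mouse left out. For the 29 other p53 targets, 1 in the fit of all mice, it was 2 after quantile normalisation, 11 with log2 age, 8 without nDKO 1 and nTKO 1, and 0 to 8 with 1 mouse left out.

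The replicate block gave 2 member probe sets and 3 other targets at an unadjusted limma p under 0.05. The share over all probe sets was 5.09% in that fit and 3.56% after quantile normalisation. The replicate numbers name different mice and only 2 are shared, so they pair nothing here. Deviations of same-numbered mice from their group means correlated at 0.38 and 0.31 over probe sets. The deviations of nTKO 1 are the negative of those of nTKO 2, so these values are not independent and cannot decide on a pairing.

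By their brightest probe sets, Fas, Ei24, Mdm2, Pmaip1, Sesn1 and Sesn2 kept their direction in every alternative run. Of the other probe sets of Sesn1, 1 turned to 0.047 without nTKO 2 and 1 to 0.016 with log2 age. The dim probe set of Mdm2 was at 0.04 with all mice. Its second probe set was at 0.005 without nDKO 3 and with the replicate block, and at 0.12 without nTKO 2. Bbc3 was -0.014 with log2 age and 0 without nTKO 1. Ccng1 was -0.0067 after median centring, -0.38 with log2 age, -0.04 with the replicate block, -0.125 without nDKO 1 and nTKO 1, -0.37 in the pair of like age, -0.028 by another probe set and -0.21 to 0.21 with 1 mouse left out. Zmat3 was -0.41 with log2 age, -0.46 in the pair and -0.13 to 0.22 with 1 mouse left out. The cause was not tested. Leaving out an nTKO mouse leaves 1, which is assumed to vary like the nDKO mice. Of the 17 probe sets, 15 passed the filter at the median signal. Dim probe sets may not respond.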
